A study of Homo sapiens with 6 samples.

Results

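The small nucleolar RNAs (snoRNAs), small Cajal body RNAs (scaRNAs) and small nuclear RNAs (snRNAs) were described in RNA immunoprecipitation sequencing (RIP-seq) of WaGa cells, an established Merkel cell carcinoma line that carries Merkel cell polyomavirus. The members were chosen by their read counts: a gene of 1 of these 3 types with at least 60 counts summed over the 6 libraries. This rule kept 70 of the 2893 annotated genes of the 3 types, in a table of 60655 genes. They were 37 of 943 snoRNA genes, 4 of 49 scaRNA genes and 29 of 1901 snRNA genes. Of all 2893 genes, 565 had at least 1 count. The snoRNAs were divided by symbol into 20 box C/D genes, 14 box H/ACA genes and 3 others, namely *U3*, *AF111168.1* and *AL078581.1*.

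The libraries came from untreated cells of WT genotype, 3 from immunoprecipitation (IP) with an IGF2BP3 antibody and 3 from IP with IgG as the negative control. Both groups carried the replicate numbers 1 to 3, and no source used here says whether the replicates came from separate cultures. A single cell line was used, and no input library was analysed here, so a level in an IP could not be set against the level in the cells. In bulk libraries, fewer cells of a type and less RNA per cell cannot be told apart. IMP3, the name the labels use for IGF2BP3, is also the symbol of an unrelated protein of the U3 snoRNA particle, and it means IGF2BP3 here.

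Box C/D snoRNAs guide the methylation of ribose in ribosomal RNA, and box H/ACA snoRNAs guide the conversion of uridine to pseudouridine. The scaRNAs do the same to the snRNAs in Cajal bodies, and the U1, U2, U4, U5 and U6 snRNAs form the core of the spliceosome, which removes introns. Most human snoRNAs are cut out of the introns of host genes, whereas the U3 genes and most snRNA genes have promoters of their own. IGF2BP3 is an RNA-binding protein known mainly for its binding to mRNAs.

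The sequences of the members on which the results turn were taken from GENCODE version 44 on GRCh38, on the sense strand. *SNORA80B* and *SNORA22*, shown first, had the lowest fold changes of the box H/ACA members. Capitals mark the ACA box at 3 bases before the 3′ end. *SNORA80B* lies in *ODC1* at chr2:10446714-10446849 on the minus strand and *SNORA22* in *CCT6P1* at chr7:65755526-65755659 on the plus strand.
SNORA80B: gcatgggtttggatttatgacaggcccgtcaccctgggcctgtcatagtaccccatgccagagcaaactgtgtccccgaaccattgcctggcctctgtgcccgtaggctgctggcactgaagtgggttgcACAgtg
SNORA22: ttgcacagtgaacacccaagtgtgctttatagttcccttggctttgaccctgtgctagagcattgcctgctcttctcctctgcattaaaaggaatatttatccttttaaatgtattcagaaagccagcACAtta

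The ACA box was in this place in 10 of the 14 box H/ACA members (71.4%) and in 66.4% of the 214 annotated box H/ACA genes. Box C (TGATGA) began within the first 15 bases in 11 of the 20 box C/D members (55%), against 65.5% of the 313 annotated genes. Box D (CTGA) began within the last 15 bases in 13 of the 20 members (65%), against 87.2%. These were searched on the sense strand only, and a box with other letters would not have been found.

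Of the 6 U5 members, *RNU5A-1* and *RNU5B-1* differed by 7 single-base edits, and every other pair differed by 15 to 28. How reads that fit more than 1 of them were counted is not known, so the values of single U5 genes are uncertain. The U1 genes were more alike still. *RNU1-1*, *RNU1-2*, *RNU1-3*, *RNU1-4*, *RNVU1-18* and *RNVU1-29* belong to a set of 8 annotated genes with the same sequence, and *RNVU1-7* and *RNVU1-28* differ from it by 1 edit each. *RNU1-1* and *RNVU1-7* are shown with the Sm site (ATTTNTG), on which the ring of Sm proteins assembles, in capitals. *RNU1-1* lies at chr1:16514122-16514285 and *RNVU1-7* at chr1:148038753-148038916, both on the minus strand. The Sm letters were in 16 of the 29 snRNA members (55.2%) and in 27.2% of the 1901 annotated snRNA genes. They were in 0 of the 6 U5 members, so these letters did not find the site in U5.
RNU1-1: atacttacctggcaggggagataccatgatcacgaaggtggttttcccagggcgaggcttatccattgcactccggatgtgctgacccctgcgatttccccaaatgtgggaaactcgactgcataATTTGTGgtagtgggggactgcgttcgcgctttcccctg
RNVU1-7: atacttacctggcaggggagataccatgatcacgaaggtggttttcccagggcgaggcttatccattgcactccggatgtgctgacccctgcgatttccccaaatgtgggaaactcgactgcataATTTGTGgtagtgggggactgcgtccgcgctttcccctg

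The libraries held 9758759 to 14886414 counts on genes, and the members took 0.0712% to 0.143% of them. Levels are given as CPM, the counts scaled to the library size after TMM normalization, a scaling that assumes most genes do not change. Both replicate 1 libraries stood apart from replicates 2 and 3 (chi-square per degree of freedom of 18.2 to 22.0, against 2.19 and 3.25 between replicates 2 and 3). Of 11 Merkel cell carcinoma markers, viral genes included, 10 had at least 10 counts in every library, the exception being *NEUROD1*. Of 11 markers of other cell types 8 had under 10 counts in every library, *KRT14*, *PTPRC*, *CD3E* and *MLANA* were at 0 throughout, and *DCN* stood at 41.5 to 51.9 CPM.

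The summed level of each class was lower in the IGF2BP3 IP than in the IgG IP of the same replicate number, but by less than the spread between replicates of 1 group. The 20 box C/D genes summed to 112, 58.6 and 64.8 CPM in IgG IP replicates 1 to 3 and to 81.1, 49.9 and 47.3 CPM in the IGF2BP3 IP. The ratio within the same number was 0.726, 0.852 and 0.730. *SNORD3B-2*, a U3 gene, made up 39.1% of these counts, and *SNORD3A*, *SNORD3B-1* and *SNORD3C* in this sum are U3 genes too. The gene *U3*, with a mean of 57.8 CPM in the IgG IP, is not in the sum because of its symbol. The 14 box H/ACA genes summed to 34.9, 20.2 and 21.2 CPM in the IgG IP and to 29.0, 17.1 and 16.9 CPM in the IGF2BP3 IP. Their groups overlapped through replicate 1, which was highest in both groups, as it was for each class.

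The 4 scaRNAs summed to 754, 335 and 345 CPM in the IgG IP and to 639, 292 and 264 CPM in the IGF2BP3 IP. *SCARNA7*, which guides modification of U1 snRNA, made up 94.2% of these counts, and without it the ratios were 1.02, 0.981 and 0.898. The 29 snRNAs summed to 518, 371 and 418 CPM in the IgG IP and to 441, 311 and 348 CPM in the IGF2BP3 IP, with ratios of 0.851, 0.839 and 0.833. Replicate 1 exceeded the mean of replicates 2 and 3 by a factor of 2.22 (IgG IP) and 2.30 (IGF2BP3 IP) for the scaRNAs, 1.81 and 1.67 for box C/D, 1.69 and 1.71 for box H/ACA, and 1.31 and 1.34 for the snRNAs. What set replicate 1 apart was not tested. Without replicate 1 of both groups, the log2 ratio of the summed levels was -0.34 for box C/D, -0.28 for box H/ACA, -0.29 for the scaRNAs and -0.26 for the snRNAs.

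**Figure D1:**
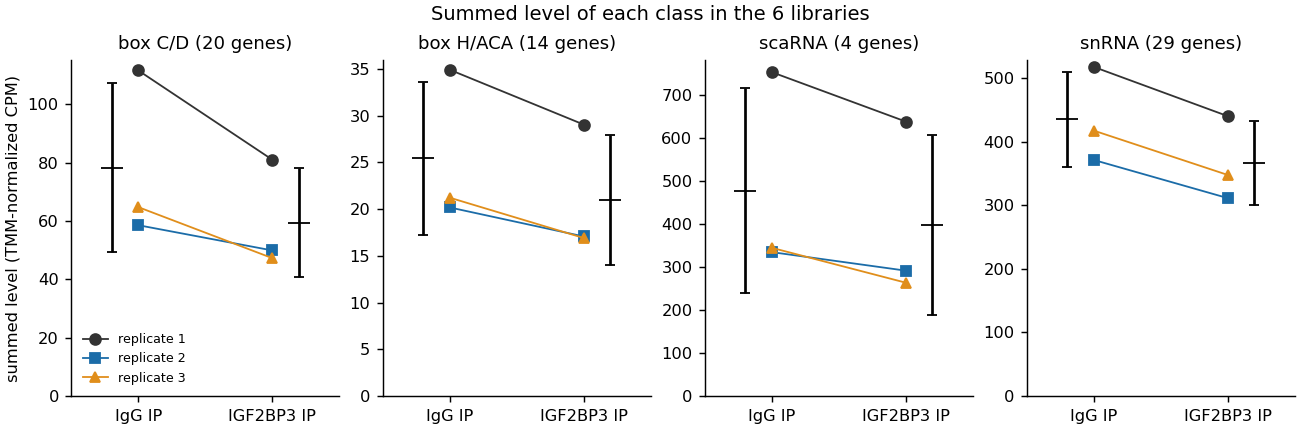
Summed level of each class in TMM-normalized CPM (y axis) in the IgG IP and the IGF2BP3 IP (x axis), 1 point per library, with lines joining libraries of the same replicate number and bars giving the mean ± SD (n = 3). Each line falls from IgG IP to IGF2BP3 IP, and replicate 1 lies above replicates 2 and 3 in every class.

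No member passed the thresholds when tested with edgeR's quasi-likelihood method on condition alone. These were a 1.5-fold change in either direction and an adjusted p-value below 0.05 (Benjamini-Hochberg). The study used the same values with DESeq2, for RNAs enriched in the IGF2BP3 IP, so the lower direction was added here. With the replicate number as a block 2 members were lower, as described further on. Of the 70 members, 69 passed the expression filter (*SNORD111*, with 61 counts, did not), and 0 were higher and 0 were lower on condition alone. Over all 14507 tested genes, 1.16% were higher and 0% were lower. Without adjustment, 7 members were lower and 0 were higher at p below 0.05, beside 3.1% and 9.72% of all tested genes. Limma-voom also called 0 members. DESeq2 called 0, but it gave no adjusted p-value for 27 of the 69, *SNORA80B*, *SNORD9* and *SNORA22* among them, so these could not be called by it. Since a gene could reach 60 counts through the group where it was high, counts over the members describe these libraries only.

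The fitted log2 fold change was below 0 in 53 of the 69 tested members, against 51.1% of all tested genes and 57.5% of tested lncRNAs. It was below 0 in 15 of 19 box C/D, 11 of 14 box H/ACA, 3 of 4 scaRNA and 23 of 29 snRNA members. The median was -0.26 for box C/D, -0.36 for box H/ACA, -0.08 for the scaRNAs and -0.23 for the snRNAs. It was -0.01 for all tested genes, 0.00 for protein-coding genes and -0.05 for lncRNAs. Every IGF2BP3 IP library was below every IgG IP library for 4 members, *SNORA80B*, *RNU5A-1*, *RNU5B-1* and *RNVU1-7*, which is 4 of 69 beside 8.69% of all tested genes. The opposite held for 1 member, *RNU6-1016P*, beside 12% of all tested genes. The median of box C/D turned to 0.09 when IgG IP replicate 1 was left out, and fell to -0.53 without IGF2BP3 IP replicate 1.

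**Figure D2:**
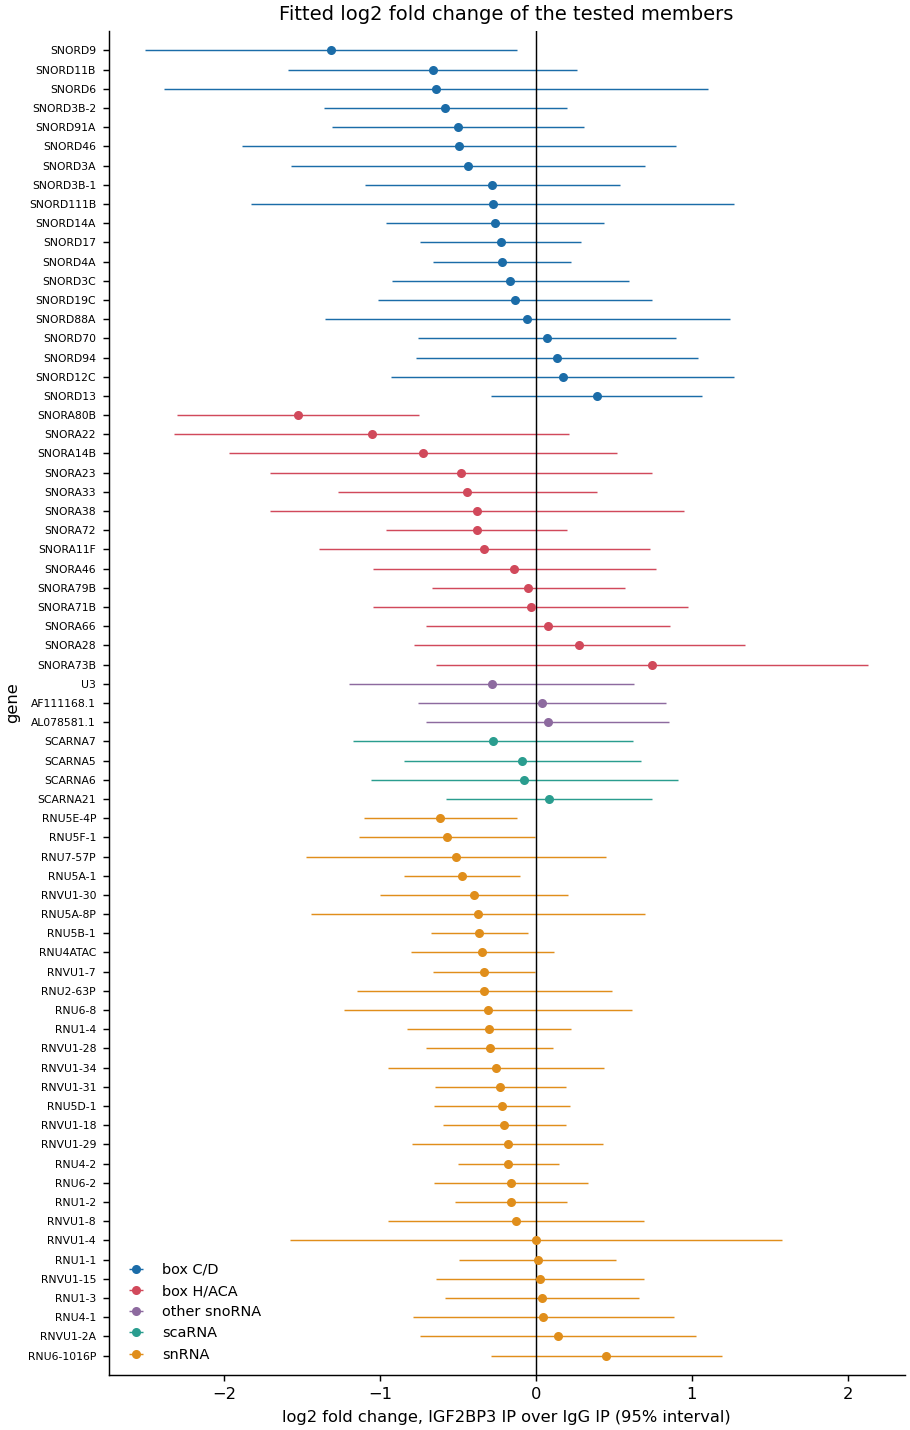
Fitted log2 fold change of IGF2BP3 IP over IgG IP (x axis) with its 95% interval for the 69 tested members (y axis), coloured by class. Of the points, 53 lie left of 0, and most intervals include 0.

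With the replicate number as a block, a fit that compares libraries of the same number, 2 members passed the same thresholds and both were lower, *SNORA80B* and *RNU5E-4P*. In that fit 3.56% of all tested genes were higher and 0.103% lower. At an adjusted p-value under 0.05 and any fold, 11 members were lower and 0 higher, beside 5.23% and 10.9% of all tested genes. They were 1 box C/D member (*SNORD3B-2*), *SNORA80B*, *U3*, *SCARNA7* and 7 snRNAs (*RNU2-63P*, *RNU5A-1*, *RNU5B-1*, *RNU5E-4P*, *RNU5F-1*, *RNVU1-7* and *RNVU1-28*). Without replicate 1 of both groups, 1 member passed the thresholds, *RNU5E-4P* (log2 fold change -0.76, edgeR adjusted p = 0.008), which was lower. In that fit 0.0545% of all tested genes were lower and 3.18% higher.

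*SNORA80B*, a box H/ACA RNA, had the lowest fold change of the members. It was selected on its value in this comparison, so its values are a description. It had 18, 23 and 18 counts in IgG IP replicates 1 to 3 and 7, 8 and 6 counts in the IGF2BP3 IP. Its level was 1.65 ± 0.27 CPM (SD, n = 3) in the IgG IP and 0.560 ± 0.063 CPM in the IGF2BP3 IP, and the groups did not overlap. The log2 fold change was -1.52 ± 0.34 (SE), with an unadjusted 95% interval of -2.30 to -0.75 and an edgeR adjusted p-value of 0.078 (0.014 with the block). It ran from -1.60 to -1.40 when single libraries were left out.

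The next lowest members were measured with few counts. *SNORD9* had 12, 24 and 9 counts with IgG against 10, 3 and 5 with IGF2BP3, with a log2 fold change of -1.32 ± 0.53. *SNORA22* had 19, 16 and 11 counts with IgG against 13, 3 and 7 with IGF2BP3, with a log2 fold change of -1.05 ± 0.56. In both, the highest IGF2BP3 IP library, replicate 1, lay above the lowest IgG IP library. *SNORA14B* (-0.73 ± 0.55) and *SNORD11B* (-0.66 ± 0.41) followed, with 5 to 20 and 7 to 20 counts per library. Their adjusted p-values were 0.34 for *SNORD9*, 0.48 for *SNORA22*, 0.63 for *SNORA14B* and 0.55 for *SNORD11B* (edgeR quasi-likelihood test).

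The highest fold changes were not past the thresholds either. *SNORA73B*, a long box H/ACA RNA in *RCC1*, had 13, 12 and 11 counts with IgG against 37, 21 and 5 with IGF2BP3. Its log2 fold change of 0.75 ± 0.61 (edgeR adjusted p = 0.66) rested on IGF2BP3 IP replicate 1, without which it was 0.01. *RNU6-1016P*, a U6 copy in *SENP6*, had 10, 18 and 10 counts with IgG against 19, 16 and 18 with IGF2BP3 (0.45 ± 0.33). *SNORD13*, which guides acetylation of 18S ribosomal RNA, had 15, 16 and 18 counts against 19, 26 and 22 (0.39 ± 0.30). *SNORA28* (0.28 ± 0.47) and *SNORD12C* (0.17 ± 0.49) completed the 5 highest.

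The U5 snRNAs, which hold the exons in place during splicing, were lower as a group within each replicate number. This family was singled out after its values were seen. The 6 genes summed to 101, 89.9 and 99.4 CPM in the IgG IP and to 85.7, 68.0 and 73.0 CPM in the IGF2BP3 IP, so that the groups did not overlap. The ratios within the same number were 0.848, 0.756 and 0.735, and all 6 log2 fold changes lay between -0.61 and -0.22.

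*RNU5E-4P*, a gene annotated as a U5 pseudogene, had 6.50, 11.3 and 9.60 CPM in the IgG IP and 5.71, 5.66 and 6.75 CPM in the IGF2BP3 IP. Its groups overlapped through IgG IP replicate 1. The log2 fold change was -0.61 ± 0.22 (edgeR adjusted p = 0.27) and -0.60 ± 0.17 with the block (adjusted p = 0.014). *RNU5A-1* had 11.6, 12.9 and 15.9 CPM in the IgG IP and 8.65, 10.7 and 9.75 CPM in the IGF2BP3 IP, with every IGF2BP3 IP library lower. Its log2 fold change was -0.47 ± 0.16 (adjusted p = 0.26, and 0.016 with the block).

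*RNU5B-1* had 30.5, 22.8 and 30.5 CPM in the IgG IP and 22.3, 21.1 and 21.5 CPM in the IGF2BP3 IP. Its log2 fold change was -0.36 ± 0.14 (edgeR adjusted p = 0.30, and 0.016 with the block). *RNU5D-1*, the most abundant U5 gene, had 41.9, 34.8 and 33.5 CPM against 42.1, 24.6 and 28.0 CPM, so that the replicate 1 libraries were nearly equal. *RNU5F-1* had 9.76, 5.49 and 6.21 CPM against 5.54, 4.23 and 4.47 CPM, and *RNU5A-8P* had 7 to 46 counts per library with overlapping groups.

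**Figure D3:**
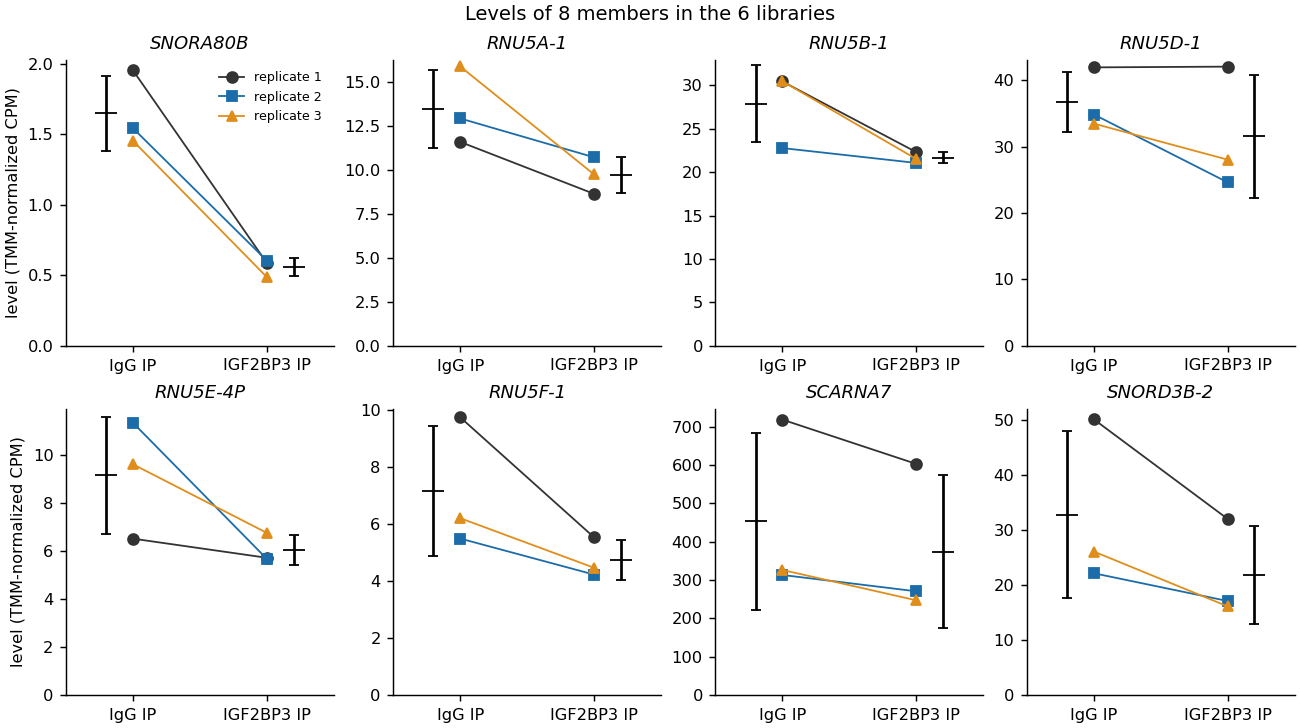
Level in TMM-normalized CPM (y axis) of *SNORA80B*, 5 U5 genes, *SCARNA7* and *SNORD3B-2* in the IgG IP and the IGF2BP3 IP (x axis), 1 point per library, with lines joining the same replicate number and bars giving the mean ± SD (n = 3). *SNORA80B*, *RNU5A-1* and *RNU5B-1* do not overlap between the groups. *SCARNA7* and *SNORD3B-2* overlap, with replicate 1 highest in both groups, and fall within each replicate number.

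The U1 genes, whose RNA pairs with the 5′ splice site, were the most abundant snRNAs among the members by counts. The 15 U1 members summed to 285, 198 and 216 CPM in the IgG IP and to 248, 168 and 185 CPM in the IGF2BP3 IP, with ratios of 0.873, 0.850 and 0.858. *RNVU1-18* led with 63.1 ± 13.8 CPM in the IgG IP and 54.7 ± 10.2 CPM in the IGF2BP3 IP (SD, n = 3). As 6 of the 15 have one sequence, the sum is better defined than any single U1 gene. Among the others, *RNVU1-28* had a log2 fold change of -0.30 ± 0.18, *RNVU1-7* of -0.33 ± 0.14, *RNU1-1* of 0.01 ± 0.22, *RNU1-2* of -0.16 ± 0.16, *RNU1-3* of 0.04 ± 0.27 and *RNU1-4* of -0.30 ± 0.23.

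U4 and U6, which enter the spliceosome paired with each other, were closest to equal. *RNU4-2* had 54.7, 40.4 and 48.4 CPM in the IgG IP and 46.8, 35.7 and 44.1 CPM in the IGF2BP3 IP (-0.18 ± 0.14). *RNU4-1* had 14 to 23 counts in the IgG IP and 12 to 27 in the IGF2BP3 IP (0.05 ± 0.37). *RNU6-2*, whose sequence is shared by 7 annotated genes, had 15.5 ± 3.7 CPM in the IgG IP and 13.8 ± 2.9 CPM in the IGF2BP3 IP (-0.16 ± 0.22), and *RNU6-8* had 7 to 16 counts per library (-0.31 ± 0.41). *RNU4ATAC*, a part of the minor spliceosome, had 25.6, 14.2 and 18.0 CPM against 15.9, 14.7 and 14.6 CPM (-0.34 ± 0.20). The edgeR adjusted p-values of these 5 genes ran from 0.53 for *RNU4ATAC* to 0.98 for *RNU4-1*. *RNU2-63P*, a U2 copy, had 28.1, 12.7 and 13.3 CPM against 21.1, 10.1 and 11.3 CPM.

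*SCARNA7* alone held 41.3% of all counts on the members. It had 719, 313 and 326 CPM in the IgG IP and 603, 271 and 247 CPM in the IGF2BP3 IP, lower within each replicate number although the groups overlapped. The log2 fold change was -0.28 ± 0.40 (edgeR adjusted p = 0.83) and -0.29 ± 0.06 with the block (adjusted p = 0.00060). It turned to 0.23 without IgG IP replicate 1, and was -0.30 without replicate 1 of both groups (edgeR adjusted p = 0.0012). *SCARNA5* and *SCARNA6*, both in *ATG16L1*, had 81 to 163 and 33 to 84 counts per library, with log2 fold changes of -0.09 ± 0.34 and -0.07 ± 0.43. *SCARNA21*, in *CHD3*, had 91 to 179 counts per library (0.09 ± 0.29).

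U3, the most abundant box C/D RNA, takes part in the cleavage of the ribosomal RNA precursor rather than in guiding methylation. Its 5 genes, *U3*, *SNORD3A*, *SNORD3B-1*, *SNORD3B-2* and *SNORD3C*, summed to 170, 70.8 and 80.1 CPM in the IgG IP and to 126, 60.4 and 59.7 CPM in the IGF2BP3 IP. The groups overlapped, and the ratios within the same number were 0.741, 0.853 and 0.746. *SNORD3B-2* had 462, 330 and 323 counts against 381, 226 and 198, with a log2 fold change of -0.58 ± 0.35 (edgeR adjusted p = 0.53) and of -0.58 ± 0.10 with the block (adjusted p = 0.00011). It moved to -0.15 when IgG IP replicate 1 was left out, and to -0.96 when the replicate 1 library of the IGF2BP3 IP was. Without replicate 1 of both groups it was -0.53 (edgeR adjusted p = 0.0063). *U3* had 876, 551 and 516 counts against 885, 433 and 423 (-0.29 ± 0.40), and *SNORD3B-1* had 165, 132 and 97 against 164, 103 and 80 (-0.28 ± 0.36).

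The other leading box C/D members lie in introns of genes of the translation machinery or the nucleolus. *SNORD14A* in *RPS13* had a log2 fold change of -0.26 ± 0.31, *SNORD4A* in *RPL23A* of -0.22 ± 0.20 and *SNORD19C* in *GNL3* of -0.13 ± 0.39. Of the leading box H/ACA members, *SNORA72* in *RPL30* had 48, 77 and 59 counts with IgG against 65, 41 and 38 with IGF2BP3 (-0.38 ± 0.26). *SNORA38* in *PRRC2A* (-0.38 ± 0.59), *SNORA11F* (-0.33 ± 0.47) and *SNORA79B* in *CCNB1IP1* (-0.05 ± 0.27) had 8 to 39, 8 to 28 and 16 to 30 counts per library. All of these had groups that overlapped.

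An intronic snoRNA or scaRNA is mostly cut from the precursor of its host gene, so the members were set beside the genes they lie in, called hosts here. Of the 70 members 43 lay within a gene on the same strand, and for 37 of them both were tested. Where a member lay in more than 1 gene, protein-coding genes were taken first and then the shortest. *SNORA73B*, *SNORA22*, *SNORD17*, *RNU1-4* and *RNVU1-34* lay in 2 genes each, and the other gene was not compared. The fitted log2 fold change of the member was below that of its host in 25 of 37, and the median difference was -0.16 (-0.21, -0.18 and -0.37 within replicates 1 to 3). The 37 include 4 snRNAs, a type whose genes mostly have promoters of their own, and for the 33 snoRNAs and scaRNAs the member was below its host in 22, with a median difference of -0.14. Over the 37 pairs, the medians were -0.22 for the members and -0.09 for their hosts, and the 27 members without a host had a median of -0.23. No host passed the thresholds without the block, and *PRRC2A* did with it. The median difference was 0.00 when at least 10 counts were required in every library, which removes the members with few counts.

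*ODC1*, the host of *SNORA80B* and the gene of the first enzyme of polyamine synthesis, had a log2 fold change of -0.09 ± 0.08 and so a difference of -1.44 from its snoRNA. *CHD8*, the host of *SNORD9*, had 0.03 ± 0.09 (difference -1.35), and *CCT6P1*, the host of *SNORA22*, had -0.21 ± 0.12 (difference -0.84). *PRRC2A*, the host of *SNORA38*, was at 0.74 ± 0.16 (edgeR adjusted p = 0.066), with a difference of -1.12. *KPNA4*, an importin gene and the host of *SCARNA7*, was at -0.26 ± 0.07, with a difference of -0.01. At the other end, *RCC1* was at -0.04 ± 0.09 and *SENP6* at -0.18 ± 0.10, so that *SNORA73B* and *RNU6-1016P* lay 0.79 and 0.63 above them. *SNORA73B* lies in 2 genes, of which only *RCC1* was compared. These differences have no test of their own.

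**Figure D4:**
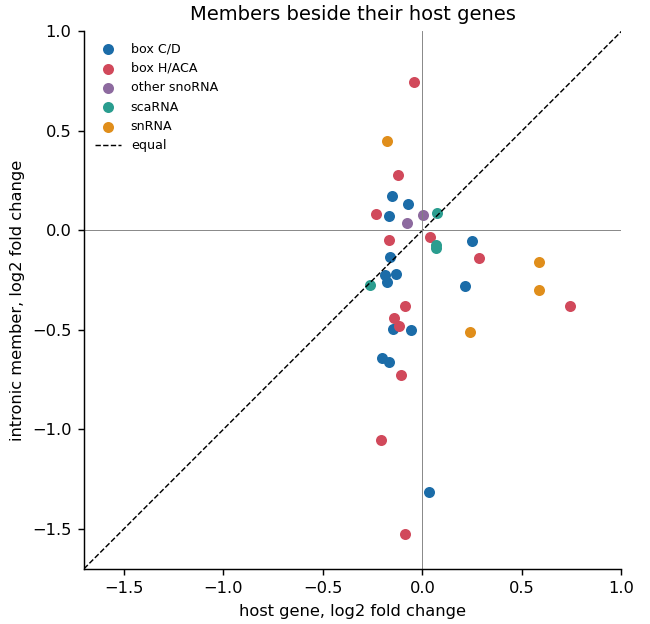
Fitted log2 fold change of the intronic member (y axis) against that of its host gene (x axis) for the 37 pairs in which both were tested, coloured by class; the dashed line marks equal values. Of the pairs, 25 lie below the line, and the members spread over a wider range than the hosts.

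The mRNAs of the proteins that bind these RNAs were read from fixed lists. The 4 box C/D core proteins (*FBL*, the methyltransferase, *NOP56*, *NOP58* and *SNU13*) and the 4 box H/ACA core proteins (*DKC1*, the pseudouridine synthase, *NHP2*, *NOP10* and *GAR1*) had 0 calls, with medians of -0.07 and -0.05. There were also 0 calls among 9 tested snoRNP assembly factors, 6 U3 processome genes, 14 Cajal body and telomerase genes, 28 Sm and snRNP protein genes, 10 LSm genes, 17 genes of snRNA transcription and 21 lncRNA hosts of snoRNAs. Medians ran from -0.17 for LSm to 0.02 for the U3 processome. With the replicate block 2 of them were higher, *PRPF8*, a U5 snRNP protein at the centre of the spliceosome (log2 fold change 0.59, edgeR adjusted p = 1.5e-07, and 0.22 without the block), and *INTS1*, a subunit of the Integrator complex that cleaves snRNA precursors (0.93, adjusted p = 9.7e-05, and 0.087 without the block).

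Of the other structured small RNAs, 14 of 15 listed were in the table, 3 were tested and none was called. *RN7SL1*, the RNA of the signal recognition particle, had 3320 to 12377 counts per library and a log2 fold change of -0.50 ± 0.55 (edgeR adjusted p = 0.76). With the replicate block its log2 fold change was -0.575 (edgeR adjusted p = 2.6e-07), just short of the fold threshold. *RN7SK*, *RMRP* and *RPPH1*, which hold back transcription elongation or cut RNA precursors, had 0 counts in every library, as had *RN7SL2*. They were not absent from RSEM's length-scaled estimates (TPM), given below for *RN7SK*. Mean TPM in the IgG IP and the IGF2BP3 IP were 21085 and 19410 for *RPPH1* and 17196 and 12040 for *RN7SL2*. For the *RMRP* entry typed as a ribozyme they were 17443 and 17945.

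The count table and the table of TPM, RSEM's length-scaled estimates, held different members. TPM were 0 in all 6 libraries for 60 of the 70 members, which carried 47.4% of the members' counts, the 29 snRNAs among them. The 59 members shorter than 196 nucleotides were all at 0 TPM, and of the 11 others only *SNORD3C* was. *SCARNA7* had 8101, 5140 and 5843 TPM in the IgG IP and 7482, 4903 and 4243 TPM in the IGF2BP3 IP. *SNORD3B-2* had 129, 81.1 and 90.9 TPM against 122, 69.0 and 71.6 TPM. *SNORA73B* went from 0, 31.6 and 50.3 TPM in the IgG IP to 54.5, 0 and 0 TPM in the IGF2BP3 IP, so its direction differed from that in the counts.

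**Figure D5:**
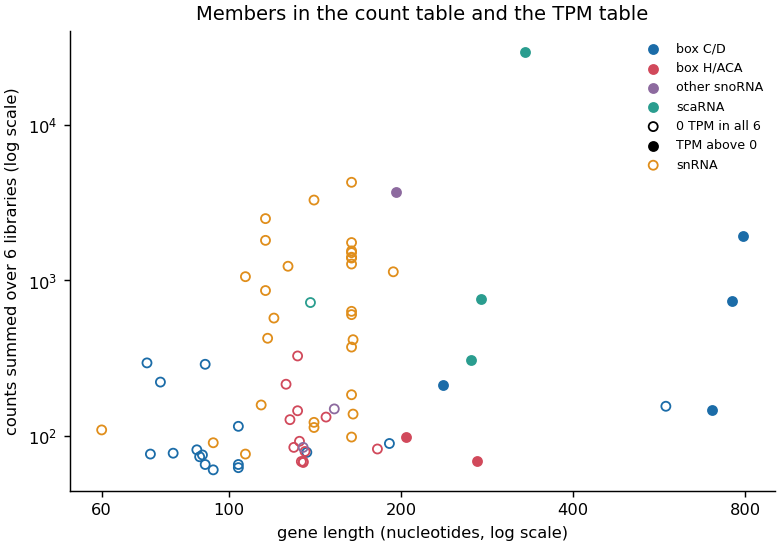
Counts summed over the 6 libraries (y axis, log scale) against gene length in nucleotides (x axis, log scale) for the 70 members, coloured by class. Open circles mark the 60 members listed at 0 TPM in every library, 59 of which are shorter than 196 nucleotides.

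In the other direction, 17 genes of the 3 types had 0 counts and TPM above 0. *RN7SK* had 72078 ± 29225 TPM in the IgG IP and 60559 ± 35101 TPM in the IGF2BP3 IP (SD, n = 3), and *SCARNA10* had 3639 ± 1172 and 3311 ± 900 TPM. *SCARNA13* was at 1846 ± 131 and 1856 ± 58 TPM and *SCARNA2* at 1464 ± 118 and 1284 ± 118 TPM. The groups overlapped in all 17. These 4 genes lie over an exon of another gene on the same strand in the annotation, as do *SNORA73A*, *SCARNA12* and *RNU2-2P*. The rest of the 17, *SNORA59B*, *RNU2-1* and the genes named *U2*, do not. Of 333 such genes among the 3 types 0 were members, the highest having 57 counts, against 70 of 2559 without such an overlap (2.74%). The rule thus kept genes that stand clear of same-strand exons, and 4 members, *SNORD4A*, *SNORA72*, *RNU1-3* and *RNU1-4*, lay over an exon on the opposite strand.

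At the edge of the rule, *SNORD111* had 61 counts and *SNORD19*, just outside it, 58. Among the snRNAs *RNU6-8* had 77 and *RNU4ATAC18P* 58, and among the scaRNAs *SCARNA6* had 307 and *SCARNA1* 44.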

How the data were processed

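The data were 6 RIP-seq libraries of WaGa cells, grouped and numbered by their sample labels. The submitters' processing notes name STAR 2.7.9a, RSEM and GRCh38. The counts deposited by the authors are whole numbers and not normalized. Their deposited TPM and FPKM come from RSEM, and the FPKM were left aside. No source used here names the program behind the counts or says if strand was considered, so genes that overlap on either strand are uncertain. Per the labels, reads were paired and longer than many members.

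The members and lists were chosen with earlier results of these data known. After filterByExpr and TMM, the counts were fitted with the edgeR 4.0.16 quasi-likelihood model (R 4.3.3) on condition alone. DESeq2 1.42.0, which the study used, was an alternative, as were voom and, for TPM on a log2 scale with 1 or 0.1 added, limma-trend (both limma 3.58.1), other scalings and filters, summed minimums of 30 and 120 counts, and leaving out each library. Fits without replicate 1 of both groups, and with the replicate block at any fold, were added after the data were seen. A standard error is the size of the log2 fold change divided by the root of F. The fits were tested on simulated counts in which only genes with more counts than many members have were changed. That test therefore cannot speak for members with few counts. The number of libraries, 3 a group, limits the precision, and p-values weigh the difference between the groups against the spread between these libraries.

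The block follows the replicate numbers in the labels, and whether these pair the samples is not known. Deviations from the group means correlated across genes between libraries of the same number (0.57, 0.28 and 0.23). Replicates 2 and 3 correlated to the same degree when crossed (0.28 and 0.27). The correlations thus set replicate 1 apart but cannot show which of replicates 2 and 3 belong together. Named genes were *SNORA80B*, the 5 most abundant members per class, the 5 highest and 5 lowest fold changes, canonical snRNAs, the edges of the rule, and calls; 4 members with low adjusted p-values in the blocked fit, *RNU5E-4P* among them, were added after their values were seen. Coordinates, hosts and sequences came from GENCODE version 44, which held 2892 of the 2893 genes. The authors used an earlier version on the same build. A marker gene and some member sequences are not reported here.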

Additional observations from a re-analysis of the deposited data

How the results depend on the processing

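Under every alternative run, the count of members called higher stayed at 0, with no adjusted p-value from DESeq2 for 27 of them. Some runs could change little. The 2 TPM scales could call only the 10 members with TPM above 0 in at least 1 library. Dropping the fold minimum kept the edgeR fit reported, in which the smallest adjusted p-value of a member was 0.078. Requiring at least 10 counts in every library left out *SNORA80B*. The count called lower was 0 under all but 3: it was 2 with the replicate block, 1 without replicate 1 of both groups and 11 with the block at any fold. Calls among the fixed lists, 0 in the fit reported, were 1 with DESeq2 and 1 with no filter, 2 with the block, 0 to 2 when single libraries were left out, 3 without replicate 1 of both groups and 27 with the block at any fold. Among the host genes the block called *PRRC2A* higher, and it changed no other call reported.

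When single libraries were left out, the median log2 fold change ran from -0.53 to 0.093 for box C/D, -0.55 to -0.039 for box H/ACA, -0.51 to 0.27 for the scaRNAs and -0.38 to -0.070 for the snRNAs. The log2 ratio of the summed levels ran from -0.69 to -0.053, -0.58 to 0.022, -0.78 to 0.23 and -0.40 to -0.11 in the same order, and the median difference between members and hosts from -0.50 to -0.049. The highest and lowest of these came from leaving out a replicate 1 library. Without replicate 1 of both groups the medians were -0.22 for box H/ACA and -0.21 for the scaRNAs. The box H/ACA median was -0.049 with at least 10 counts in every library, and -1.13 and -2.17 on log2(TPM + 1) and log2(TPM + 0.1), for which only members with TPM above 0 were used, which left no snRNA. With library totals the summed ratios were -0.23 for box H/ACA and -0.20 for the snRNAs. For box H/ACA it was -0.20 with a minimum of 120 counts and -0.34 with 30. The median difference from hosts was -0.31 with DESeq2, -0.30 with no filter, 0.0011 with at least 10 counts in every library, and -0.51 and -0.55 on the 2 TPM scales. Members at 0 TPM numbered 35 with a minimum of 120 counts and 101 with 30. Leaving out members over a same-strand exon removed none. The causes were not tested, apart from the filters, which change the members by construction.

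The direction of the following members changed. None of them had passed the thresholds, and *SCARNA7*, *U3* and *RNU2-63P* were among the 11 that were lower with the block at any fold. With single libraries left out, the log2 fold change ran from -0.66 to 0.16 for *SNORD3B-1*, -0.48 to 0.20 for *SNORD19C*, -0.066 to 1.06 for *SNORA28*, -1.08 to 0.24 for *SNORA38*, -0.73 to 0.064 for *SNORA11F*, -0.12 to 0.053 for *SNORA79B*, -0.80 to 0.23 for *SCARNA7*, -0.35 to 0.29 for *SCARNA5*, -0.30 to 0.28 for *SCARNA21*, -0.67 to 0.27 for *SCARNA6*, -0.14 to 0.55 for *SNORD12C*, -0.26 to 0.16 for *RNU1-1*, -0.081 to 0.24 for *RNU1-3*, -0.21 to 0.35 for *RNU4-1*, -0.77 to 0.26 for *U3* and -0.73 to 0.12 for *RNU2-63P*. Without replicate 1 of both groups it was 0.21 for *SNORD19C*, 0.025 for *SCARNA5*, -0.11 for *SCARNA21*, -0.12 for *RNU1-1*, -0.038 for *RNU1-3* and -0.25 for *RNU4-1*. In that fit the direction was kept for *SCARNA7* (-0.30), *U3* (-0.22), *RNU2-63P* (-0.28), *SNORD3B-1* (-0.22) and *SCARNA6* (-0.32). It was also kept for *SNORA28* (0.88), *SNORA38* (-0.45), *SNORA11F* (-0.48) and *SNORA79B* (-0.14), and *SNORD12C* had no value there. With limma-voom it was 0.0018 for *SNORD19C*, -0.0067 for *RNU1-1* and -0.059 for *RNU4-1*, and with the replicate block -0.015 for *RNU1-1* and -0.010 for *RNU4-1*. For *RNU1-1* it was -0.00036 with DESeq2 and -0.00014 with RLE factors. *SNORA73B* was at -1.64 on log2(TPM + 1) and -2.73 on log2(TPM + 0.1). *SNORA14B*, with 5 to 20 counts per library, had an SE of 0.55.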
